A study of Mus musculus with 6 samples.

Results

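The interferon regulatory factors are 8 genes here, Irf1, Irf2, Irf3, Irf4, Irf5, Irf7, Irf8 and Irf9, chosen by symbol among the 20894 rows of a table of estimated RNA counts from mouse liver. All 8 had a row and all 8 passed the filter on low counts, so each was tested. The IRF3-2D group held 3 liver samples of mice with the Irf3LSL-2D allele that had received AAV8-TBG-Cre, an adeno-associated virus that drives Cre from TBG, a promoter active in hepatocytes. The Ctrl group held 3 liver samples of mice with the same allele that had received the GFP virus, AAV8-TBG-GFP. The LSL part of the allele name stands for a stop cassette between loxP sites that Cre removes, and 2D for aspartates that mimic the activating phosphorylation of IRF3. All mice of both groups carried the allele, received 3 g/kg of ethanol by intraperitoneal injection and were killed 2 h later. The sources used here give no age, sex or strain background. No group without ethanol and none with Cre but without the allele was analysed here, so effects of Cre, of GFP and of the active allele cannot be told apart.

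All members share an N-terminal DNA-binding domain that reads GAAA repeats, the letters of the interferon-stimulated response element (ISRE). IRF3 lies ready in the cytoplasm of most cells and enters the nucleus once TBK1 or IKKε phosphorylates it, while IRF7 is itself made in response to interferon and amplifies it. IRF9 is the DNA-binding subunit of ISGF3, the complex with STAT2 that carries the type I interferon signal. IRF1 activates and IRF2 mostly represses from overlapping sites, and IRF4, IRF5 and IRF8 are best known from B cells, dendritic cells and macrophages. In liver, hepatocytes make up most of the mass, and Kupffer cells are the resident macrophages.

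Promoter letters are shown because 4 members rose together while Irf2 fell. RefSeq windows on GRCm38.p6, from 250 bases before to 50 bases after an annotated start, were found for all 8 members (11 windows). The 5 windows below are those of the 3 members that hold a searched motif and of Irf3 and Irf7, the members with the largest rises. Capitals mark matches to 3 cores, searched on both strands. The ISRE core was GAAA, any 2 bases and a second GAAA, the core of the gamma-activated site (GAS), an element of interferon gamma signalling, was TTCNNNGAA, which reads the same on both strands, and the NF-kappaB core was GGG, any 2 bases and then TTTCC.
Irf1, chr11:53769764-53770063, plus strand: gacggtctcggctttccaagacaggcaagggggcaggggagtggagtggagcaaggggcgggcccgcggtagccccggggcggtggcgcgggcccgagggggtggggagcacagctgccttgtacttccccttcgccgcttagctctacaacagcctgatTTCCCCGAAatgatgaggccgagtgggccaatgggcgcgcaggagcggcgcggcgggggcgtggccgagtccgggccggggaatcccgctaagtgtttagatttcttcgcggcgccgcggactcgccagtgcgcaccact
Irf2, chr8:46739495-46739794, plus strand: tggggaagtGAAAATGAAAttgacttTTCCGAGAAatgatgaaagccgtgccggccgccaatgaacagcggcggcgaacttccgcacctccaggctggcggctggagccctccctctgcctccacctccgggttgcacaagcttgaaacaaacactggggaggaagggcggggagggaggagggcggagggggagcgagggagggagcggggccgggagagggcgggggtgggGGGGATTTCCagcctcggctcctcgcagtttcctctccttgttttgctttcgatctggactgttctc
Irf8, chr8:120736108-120736407, plus strand: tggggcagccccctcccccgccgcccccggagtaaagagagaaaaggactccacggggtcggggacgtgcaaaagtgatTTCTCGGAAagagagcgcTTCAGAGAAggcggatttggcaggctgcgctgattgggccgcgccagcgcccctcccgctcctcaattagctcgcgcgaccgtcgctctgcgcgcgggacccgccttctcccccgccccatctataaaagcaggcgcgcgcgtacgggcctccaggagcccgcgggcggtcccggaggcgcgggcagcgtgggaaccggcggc
Irf3, chr7:44997398-44997697, plus strand: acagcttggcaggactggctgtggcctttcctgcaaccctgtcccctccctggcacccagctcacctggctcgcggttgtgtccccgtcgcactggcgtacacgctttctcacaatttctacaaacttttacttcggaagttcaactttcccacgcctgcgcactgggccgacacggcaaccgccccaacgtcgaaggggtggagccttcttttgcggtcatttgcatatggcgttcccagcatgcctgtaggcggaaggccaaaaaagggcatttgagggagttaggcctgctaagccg
Irf7, chr7:141266375-141266674, minus strand: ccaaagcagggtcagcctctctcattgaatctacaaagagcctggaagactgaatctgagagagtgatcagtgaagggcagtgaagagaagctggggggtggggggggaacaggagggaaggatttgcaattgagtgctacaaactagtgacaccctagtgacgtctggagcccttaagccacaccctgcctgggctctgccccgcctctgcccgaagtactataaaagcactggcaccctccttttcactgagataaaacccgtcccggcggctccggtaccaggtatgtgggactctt
The Irf1 window held 1 GAS core, TTCCCCGAA, at positions -90 to -82 from the start, counting the first transcribed base as 0. The Irf2 window held an ISRE core, GAAAATGAAA, at -241 to -232, a GAS core, TTCCGAGAA, at -224 to -216 and an NF-kappaB core, GGGGATTTCC, at -17 to -8. The Irf8 window held 2 GAS cores, TTCTCGGAA at -171 to -163 and TTCAGAGAA at -153 to -145. None of the 3 cores was found in the other windows of the members, those of Irf3, Irf4, Irf5, Irf7 and Irf9 among them, which says only that these letters are not in these windows. Both Irf9 windows, from 55603735 and from 55604329, begin inside the gene as GENCODE M21 annotates it. The bases before that gene start, 55603571, were not searched. The ISRE core was in 3.44% of all 32851 RefSeq windows, the GAS core in 8.30% and the NF-kappaB core in 1.63%. No match overlapped another in these windows.

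**Figure D1:**
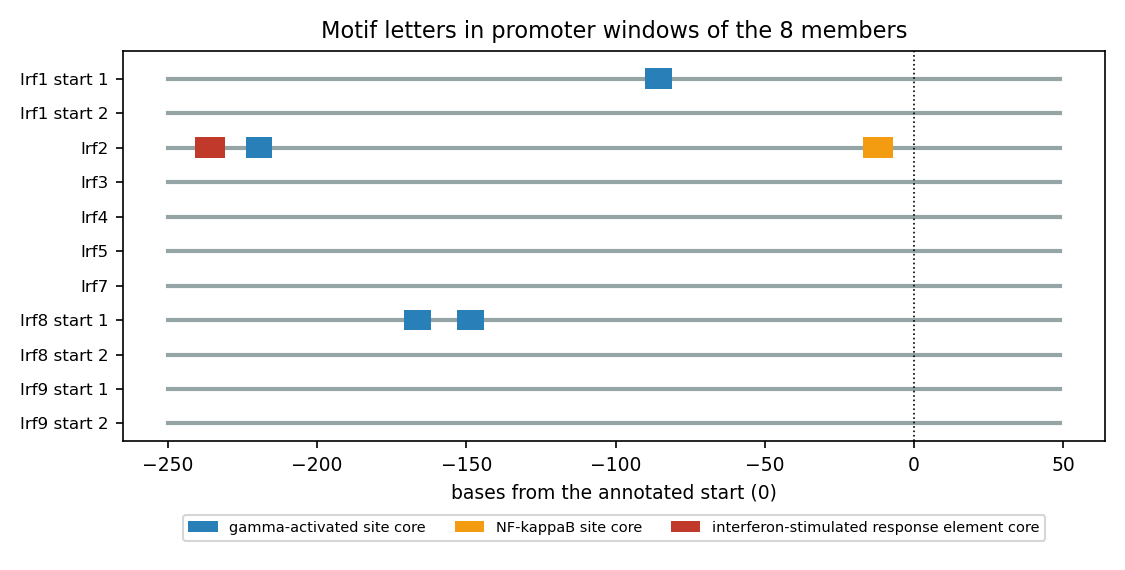
Matches to 3 motif cores (coloured boxes) in the RefSeq promoter windows of the 8 members (grey lines), by distance in bases from the annotated start at 0; Irf1, Irf8 and Irf9 have 2 windows each. Boxes stand in the windows of Irf1 (1 GAS core), Irf2 (1 core of each kind) and the first start of Irf8 (2 GAS cores).

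Counts summed to 12054096 to 13606973 in IRF3-2D libraries and 13940893 to 14830629 in Ctrl libraries. Scaling factors (TMM) were 1.12 to 1.23 in IRF3-2D and 0.822 to 0.879 in Ctrl libraries, and 3 counts, the limit that a count of 0 leaves for counting error alone, equal 0.194 to 0.203 CPM (counts scaled to library size) in an IRF3-2D library and 0.234 to 0.252 CPM in a Ctrl library. A gene was called where edgeR's quasi-likelihood test gave an adjusted p (Benjamini-Hochberg) under 0.05. Of 10802 genes tested, 26.3% were called in either direction, 13.2% higher and 13.1% lower in IRF3-2D liver, and 44.9% had no overlap between the groups' values, 23.7% with IRF3-2D above and 21.2% with IRF3-2D below. The tissue label was met by its markers, with Alb, which encodes albumin, at 50833 ± 4016 CPM in IRF3-2D and 118676 ± 22921 CPM in Ctrl liver (SD, n = 3 each). Of 7 tested hepatocyte markers 5 were called lower, Alb and Apob among them, and Ttr was called higher. That count of lower calls was 3 without IRF3-2D replicate 1 or 2 or Ctrl replicate 2 or 3 or with the replicate block, and 2 with library totals alone.

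Of the 8 members, 4 were called higher in IRF3-2D liver (Irf1, Irf3, Irf7 and Irf9) and 1 lower (Irf2), where 13.2% and 13.1% of all genes were, so 5 of 8 were called against a background of 26.3%. Irf3 is the gene whose active form the allele encodes, and its call does not separate reads of the allele from those of the native gene. Irf3 is included in these counts, in those of overlap and in the median below. Without it the higher calls are Irf1, Irf7 and Irf9. These 5 members had no overlap between the groups, 4 with IRF3-2D above (background 23.7%) and 1 with it below (background 21.2%), and the other 3 overlapped. The median log2 fold change of the 8 members was 0.81, against 0.03 over all genes tested. All 5 calls held under each alternative that was run: DESeq2, limma-voom, other scalings, other filters, the replicate block and each library left out.

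**Figure D2:**
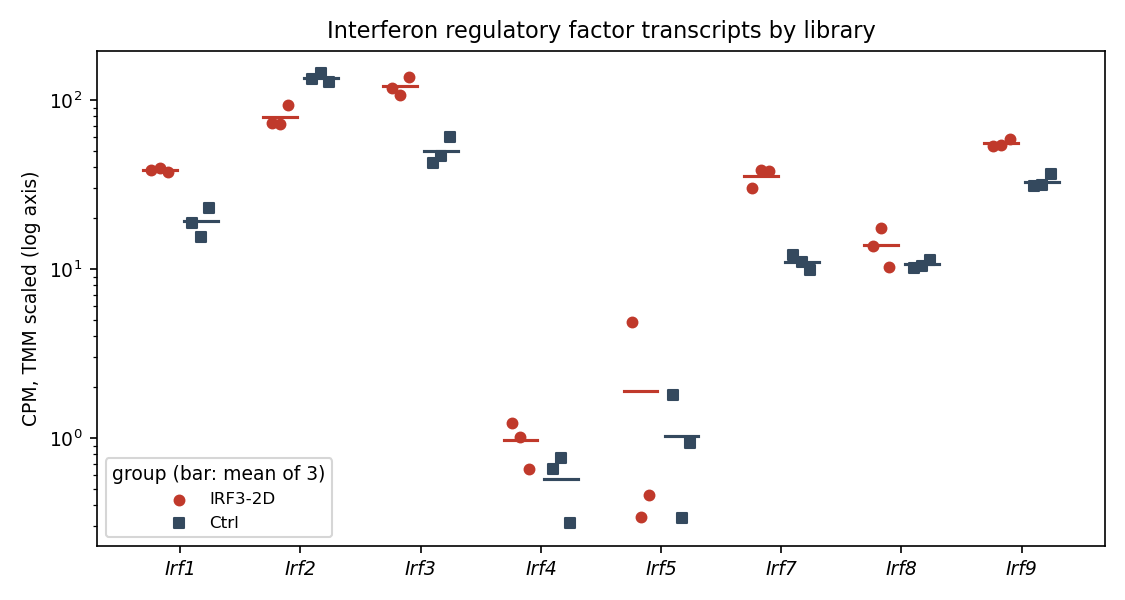
Level of each of the 8 members in each library, in CPM with TMM scaling on a log axis; red circles are the 3 IRF3-2D libraries, dark squares the 3 Ctrl libraries, bars the means. IRF3-2D libraries lie above Ctrl libraries for Irf1, Irf3, Irf7 and Irf9 and below them for Irf2, while Irf4, Irf5 and Irf8 overlap.

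Irf3 (ENSMUSG00000003184, chromosome 7, 44997648 to 45002848, plus strand, GENCODE M21 on GRCm38, as for all genes here) had 1816, 1569 and 2084 counts in IRF3-2D libraries and 521, 552 and 772 in Ctrl libraries. In CPM the IRF3-2D libraries stood at 117, 106 and 137 and the Ctrl libraries at 42.6, 46.4 and 60.3. Every IRF3-2D library was above every Ctrl library, and Ctrl replicate 3 was the highest of its group. The fitted difference was 2.41-fold, a log2 fold change of 1.27 (SE 0.16, edgeR adjusted p = 0.00152). Reads of the allele and of the native gene are counted together, and the sources used here do not say whether the allele sits at the native locus, so the rise cannot be divided between them. The 5′ end of Irf3 overlaps Bcl2l12 on the opposite strand by 1065 bases, and 1.66% of the 31-base words of Irf3 transcripts also occur in Bcl2l12. Bcl2l12 had 3, 7 and 2 counts in IRF3-2D and 0, 5 and 2 in Ctrl libraries. Scaf1, on the opposite strand with its 3′ end 99 bases beyond that of Irf3, stood at 26.6 ± 1.96 CPM in IRF3-2D and 24.6 ± 4.10 CPM in Ctrl liver (SD, n = 3 each) and was not called (log2 fold change 0.11, SE 0.14, edgeR adjusted p = 0.592), though it was with library totals alone (0.57).

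Irf7 (ENSMUSG00000025498, chromosome 7, 141262706 to 141266481, minus strand), the amplifier of interferon output, had the largest log2 fold change of the 8. It had 467, 566 and 582 counts in IRF3-2D libraries, which is 30.2, 38.3 and 38.1 CPM. In Ctrl libraries it had 147, 131 and 126 counts, which is 12.01, 11.02 and 9.85 CPM. The groups were far apart, with the lowest IRF3-2D library above the highest Ctrl library by more than the range within either group. The fitted difference was 3.24-fold, a log2 fold change of 1.70 (SE 0.14, edgeR adjusted p = 0.000298). Irf7 shares 0.361% of its 31-base words with Phrf1, which overlaps it by 45 bases on the opposite strand. Phrf1 stood at 28.9 ± 1.86 CPM in IRF3-2D and 22.5 ± 3.65 CPM in Ctrl liver (SD, n = 3 each) and was not called (log2 fold change 0.36, edgeR adjusted p = 0.0973), but was with library totals alone (0.82). The count of Irf7 per count of Irf3 was 0.257, 0.361 and 0.279 in IRF3-2D and 0.282, 0.237 and 0.163 in Ctrl libraries. These ratios overlapped, so a larger relative rise of Irf7 than of Irf3 was not shown (exact two-sided permutation test of log2 ratios, p = 0.3, where 0.1 is the smallest p that 3 against 3 allows).

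Irf9 (ENSMUSG00000002325, chromosome 14, 55603571 to 55610030, plus strand), the DNA-binding subunit of ISGF3, had 823, 797 and 898 counts in IRF3-2D and 378, 373 and 465 in Ctrl libraries. Its levels were 53.2, 54.0 and 58.9 CPM in IRF3-2D and 30.9, 31.4 and 36.3 CPM in Ctrl libraries. Replicates lay close together and the groups did not overlap. The fitted difference was 1.68-fold, a log2 fold change of 0.75 (SE 0.10, edgeR adjusted p = 0.00172). Irf9 overlaps the end of Rnf31 by 123 bases on the same strand and shares 4.82% of its 31-base words with other genes, and Rnf31 is listed at 0 in all 6 libraries. Downstream of Irf9, Rec8, a meiotic cohesin gene, stood at 6.39 ± 2.30 CPM in IRF3-2D and 1.47 ± 0.853 CPM in Ctrl liver (SD, n = 3 each) and was called higher (log2 fold change 2.11, SE 0.50, edgeR adjusted p = 0.0213). Without IRF3-2D replicate 1 or Ctrl replicate 3, or with the block, the call of Rec8 was lost (adjusted p = 0.0692 with the block).

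Irf1 (ENSMUSG00000018899, chromosome 11, 53770014 to 53778374, plus strand), an activator that interferon gamma induces, had 592, 580 and 570 counts in IRF3-2D and 230, 184 and 295 in Ctrl libraries. In CPM that is 38.3, 39.3 and 37.4 in IRF3-2D libraries. The Ctrl libraries stood at 18.8, 15.5 and 23.1 CPM. The IRF3-2D libraries were nearly level and the Ctrl libraries spread more widely, with coefficients of variation of 2.52% in IRF3-2D and 19.9% in Ctrl liver, and the groups did not overlap. The fitted difference was 2.00-fold, a log2 fold change of 1.002 (SE 0.15, edgeR adjusted p = 0.00312). Irf1 shares 2.19% of its 31-base words with other annotated genes, chiefly Gm17334 on the opposite strand. Its promoter window is the one with a single GAS core above, TTCCCCGAA.

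Irf2 (ENSMUSG00000031627, chromosome 8, 46739732 to 46847458, plus strand), which competes with IRF1 for its sites, was the one member called lower. It had 1135, 1064 and 1418 counts in IRF3-2D and 1625, 1710 and 1635 in Ctrl libraries. Its levels were 73.4, 72.1 and 92.9 CPM in IRF3-2D and 133, 144 and 128 CPM in Ctrl libraries. IRF3-2D replicate 3 was the highest of its group and still below every Ctrl library. Irf2 was 1.70-fold lower, a log2 fold change of -0.76 (SE 0.12, edgeR adjusted p = 0.00413). The size of this fall rests on the scaling. With library totals alone, where the median log2 fold change of all genes tested moved to 0.49, Irf2 stood at -0.31 (adjusted p = 0.0382) and kept its call. Irf2 was the member whose window held the ISRE core, GAAAATGAAA.

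**Figure D3:**
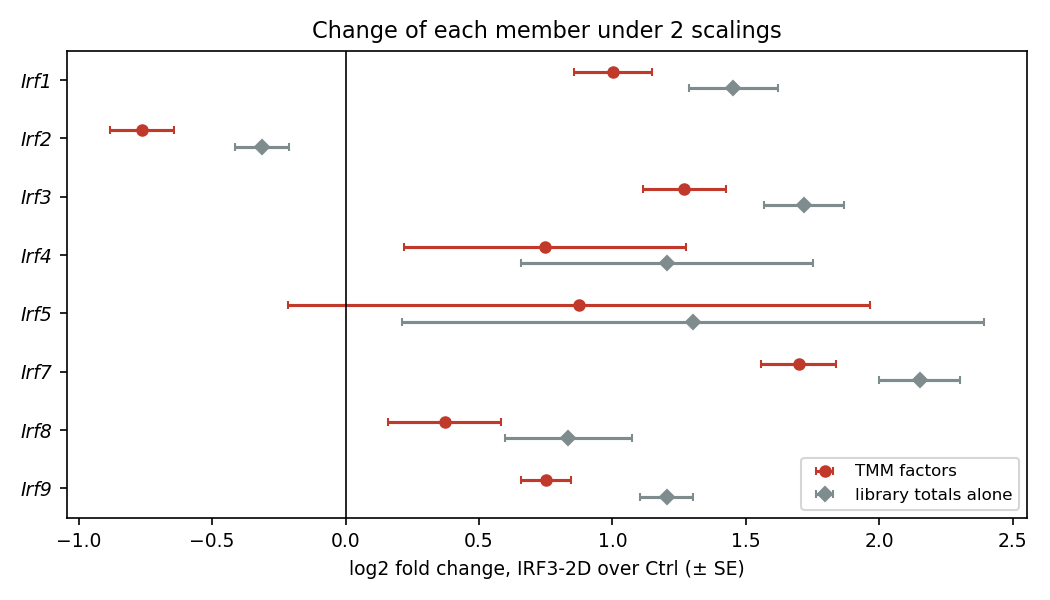
Log2 fold change of each of the 8 members, IRF3-2D over Ctrl, with its SE as bars, under TMM scaling (red circles) and with library totals alone (grey diamonds). The values of Irf1, Irf3, Irf7 and Irf9 are above 0 and that of Irf2 is below 0 under both.

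Irf8, Irf4 and Irf5, the members best known from blood and immune cells, were not called. Irf8 (ENSMUSG00000041515, chromosome 8, 120736358 to 120756694, plus strand), which directs monocyte and dendritic cell development, had 210, 257 and 157 counts in IRF3-2D and 124, 124 and 145 in Ctrl libraries. Its levels were 13.6, 17.4 and 10.3 CPM in IRF3-2D and 10.1, 10.4 and 11.3 CPM in Ctrl libraries. IRF3-2D replicate 2 was highest, and IRF3-2D replicate 3 lay within the range of the Ctrl libraries. The log2 fold change was 0.37 (SE 0.21, edgeR adjusted p = 0.242). It ran from 0.17 without IRF3-2D replicate 2 to 0.53 without IRF3-2D replicate 3, and passed the threshold with library totals alone (0.84, adjusted p = 0.0234). Its window with 2 GAS cores is printed above.

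Irf4 (ENSMUSG00000021356, chromosome 13, 30749226 to 30766976, plus strand), a factor of plasma cells and activated lymphocytes, was near the limit of detection. It had 19, 15 and 10 counts in IRF3-2D and 8, 9 and 4 in Ctrl libraries, which is 1.23, 1.02 and 0.655 CPM in IRF3-2D and 0.654, 0.757 and 0.313 CPM in Ctrl. IRF3-2D replicate 3 fell among the Ctrl libraries. A log2 fold change of 0.75 (SE 0.53, edgeR adjusted p = 0.344) did not pass the test.

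Irf5 (ENSMUSG00000029771, chromosome 6, 29526625 to 29541871, plus strand), which acts below Toll-like receptors in macrophages, had 75, 5 and 7 counts in IRF3-2D and 22, 4 and 12 in Ctrl libraries. IRF3-2D replicate 1, at 4.85 CPM, held nearly all counts of its group, whose other libraries had 0.339 and 0.459 CPM. The Ctrl libraries had 1.80, 0.336 and 0.938 CPM. The log2 fold change of 0.87 (SE 1.09, edgeR adjusted p = 0.598) became -1.35 without IRF3-2D replicate 1, so no direction can be given. The 3′ end of Irf5 overlaps Tnpo3, the gene of a nuclear import receptor, by 1045 bases on the opposite strand, and 12.3% of the 31-base words of Irf5 also occur there. Tnpo3 had 6, 9 and 78 counts in IRF3-2D and 0, 0 and 91 in Ctrl libraries. In both groups replicate 1 was highest for Irf5 and replicate 3 for Tnpo3. Whether the shared words moved counts between these genes was not tested.

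A neighbour here is the next gene with a row on either side of a member, so annotated genes without a row can lie between. Of the other neighbours, Exoc2, 46942 bases beyond Irf4 and coding for an exocyst subunit, was called higher (log2 fold change 0.59, SE 0.09, edgeR adjusted p = 0.00434). Cdhr5, next to Irf7, was called higher (0.35, edgeR adjusted p = 0.0386) and Cox4i1, next to Irf8, lower (-1.31, edgeR adjusted p = 0.0442). Cox4i1 stood at only 2.98 ± 0.963 CPM in IRF3-2D and 7.39 ± 2.58 CPM in Ctrl liver (SD, n = 3 each). At that low level its row may miss transcripts of the gene. Leaving out IRF3-2D replicate 1 or 3 or any Ctrl library ended the call of Cdhr5, as did the block, RLE factors and no filter. Leaving out any IRF3-2D library or Ctrl replicate 2 or 3 ended that of Cox4i1, as did limma-voom, no filter, the block and library totals alone. Slc22a5 (86167 bases from Irf1), Dusp22 (37994 from Irf4), Kcp (18672 from Irf5) and Foxf1 (327691 from Irf8) were not called. Il5, 44907 bases from Irf1, was at 0 in all 6 libraries.

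Within a library, the count of a member divided by that of Irf2 needs no scaling between libraries. Irf3 had 1.60, 1.47 and 1.47 counts per count of Irf2 in IRF3-2D libraries and 0.321, 0.323 and 0.472 in Ctrl libraries. Irf1, the antagonist of Irf2, had 0.522, 0.545 and 0.402 counts per count of Irf2 in IRF3-2D and 0.142, 0.108 and 0.180 in Ctrl libraries. The ratio of Irf3 to Irf2 was 4.14-fold higher in IRF3-2D liver, that of Irf1 to Irf2 3.46-fold, that of Irf7 to Irf2 5.52-fold and that of Irf9 to Irf2 2.88-fold. Each pairs a member already seen above Ctrl with the one already seen below, so the lack of overlap in these ratios was fixed by that choice and no test is given. The log2 difference of the Irf1 to Irf2 ratio ran from 1.60 to 1.98 with single libraries left out.

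Levels of different members were compared per kilobase of the longest annotated transcript (CPM per kb). The sum over the 8 members was 127 ± 9.75 CPM per kb in IRF3-2D and 83.0 ± 5.29 CPM per kb in Ctrl liver (SD, n = 3 each). With this length, most of the difference in the sum was in Irf3, whose count includes reads of the allele. The sum, its difference between the groups and the order below all depend on the length used. Irf2, the member called lower, has 3965 bases in its longest transcript and a median of 550.5 bases over its coding transcripts. It thus weighs far more in a sum made with the median length, so the rise of this sum is given for the longest transcript alone. In Ctrl liver Irf2 led with 34.0 ± 2.07 CPM per kb and Irf3 followed with 24.51 ± 4.602, without overlap. Irf1 (8.94 ± 1.78 CPM per kb) and Irf9 (8.49 ± 0.781) came next and overlapped, as did Irf7 (3.38 ± 0.334) and Irf8 (3.06 ± 0.180). Irf5 (0.457 ± 0.328) and Irf4 (0.121 ± 0.0488) were last, and their ranges overlapped too. In IRF3-2D liver Irf3 led with 59.1 ± 7.54 CPM per kb. Irf2 (20.05 ± 2.94 CPM per kb) and Irf1 (17.9 ± 0.452) followed and overlapped. Irf9 (14.3 ± 0.789 CPM per kb), Irf7 (11.0 ± 1.43) and Irf8 (3.97 ± 1.03) came after them, each apart from its neighbours in this order. Irf5 (0.840 ± 1.15 CPM per kb) and Irf4 (0.203 ± 0.0609) again overlapped at the low end.

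As a share of that sum, Irf3 held 46.3% ± 2.52 in IRF3-2D and 29.4% ± 3.57 in Ctrl libraries (SD, n = 3 each). Irf2 held 15.7% ± 1.08 in IRF3-2D and 41.1% ± 4.37 in Ctrl libraries. Irf7 held 8.63% ± 1.16 in IRF3-2D and 4.10% ± 0.647 in Ctrl libraries. Irf1 held 14.1% ± 1.38 in IRF3-2D and 10.7% ± 1.65 in Ctrl libraries, and Irf9 11.2% ± 0.335 in IRF3-2D and 10.2% ± 0.301 in Ctrl libraries. Each share depends on the sum, which holds Irf3 and with it reads of the allele. The share of Irf2 thus fell more than its own level, which was 1.70-fold lower. Shares also depend on the length used. With the median length of the coding transcripts, Irf2 held 37.9% in IRF3-2D and 69.7% in Ctrl libraries and Irf3 36.3% in IRF3-2D and 16.3% in Ctrl libraries, so Irf2 then led in both groups. The share of Irf8 turned with the length, at 3.16% ± 1.02 in IRF3-2D and 3.69% ± 0.0176 in Ctrl libraries (SD, n = 3 each) with the longest transcript, where the groups overlapped, and 2.08% in IRF3-2D and 1.70% in Ctrl libraries with the median length.

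**Figure D4:**
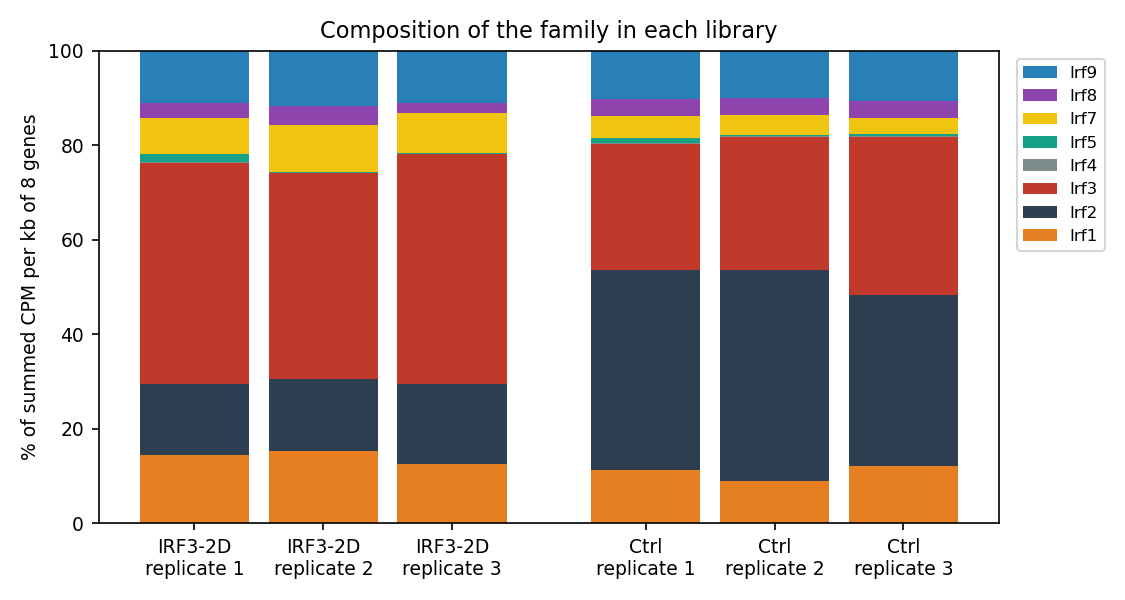
Share of each member in the summed CPM per kb (longest transcript) of the 8 genes, 1 bar per library, IRF3-2D on the left and Ctrl on the right. Irf3 (red) takes 43.6% to 48.6% of the IRF3-2D bars and 26.6% to 33.4% of the Ctrl bars, and Irf2 (dark) 14.97% to 16.9% of the IRF3-2D bars and 36.2% to 44.7% of the Ctrl bars.

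Genes that act on or with the factors were set beside them from lists of known roles. These lists were chosen with earlier results of these data known, and no test was run over a list. Of 14 kinases and adaptors that activate these factors, all tested, 1 was called higher and 2 lower, with a median log2 fold change of 0.13. These shares are near the 13.2% and 13.1% of all genes. Tbk1, the kinase of IRF3, rose 1.53-fold to 64.6 ± 4.97 CPM in IRF3-2D, against 42.3 ± 2.56 CPM in Ctrl liver (SD, n = 3 each, edgeR adjusted p = 0.00333). Irak1 (log2 fold change -0.68) and Chuk (-0.65), kinases of Toll-like receptor and NF-kappaB signalling, were the lower calls, both lost with library totals alone, where 8 of the list and 41.7% of all genes were higher. DESeq2 called 2 higher and 3 lower, as did edgeR without Ctrl replicate 1 and with a mean count of at least 50.

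Of 7 tested interferon receptor and STAT genes, Stat2, the partner of IRF9 in ISGF3, was the one called, a share near the 13.2% of all genes called higher. Stat2 stood at 125, 137 and 118 CPM in IRF3-2D and 36.0, 41.7 and 48.6 CPM in Ctrl libraries, a log2 fold change of 1.59 (SE 0.13, edgeR adjusted p = 0.000252). The list count was 2 without IRF3-2D replicate 3 and 5 with library totals alone. The list had a median log2 fold change of 0.24.

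Of 5 tested DNA-binding partners of IRF4 and IRF8, 2 were called higher (background 13.2%), Jun and Spi1, with a median log2 fold change of 0.43. Spi1, which encodes the myeloid factor PU.1, stood at 8.41, 6.98 and 5.18 CPM in IRF3-2D and 3.51, 3.36 and 2.74 CPM in Ctrl libraries (log2 fold change 1.10, SE 0.27, edgeR adjusted p = 0.0254). Its call was lost without IRF3-2D replicate 1 or 2 or Ctrl replicate 2 or 3, where the list had 1 call. Jun, a subunit of AP-1, rose 2.01-fold (edgeR adjusted p = 0.00658). The other 4 of the 9 partners were under the filter. Of 7 tested cofactors and negative regulators 2 were called higher (background 13.2%), with a median log2 fold change of 0.24. These were Crebbp, a histone acetyltransferase that IRF3 recruits (log2 fold change 0.48), and Irf2bp2, a binding partner of IRF2 (0.34). No call was left without IRF3-2D replicate 1, 2 or 3 or Ctrl replicate 3, or with the block. The count was 1 without Ctrl replicate 1 or 2, with RLE or upper-quartile factors or with no filter, and 6 with library totals alone.

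Of 18 tested targets of IRF3 and ISGF3, 17 were called higher and none lower, where 13.2% of all genes were called higher, with a median log2 fold change of 3.56, and Mx1 was the one not called. Oasl1, Ifit1, Rsad2 and Isg15 had the smallest adjusted p, with log2 fold changes of 5.78, 6.35, 7.65 and 5.87. Of 13 tested targets of IRF1, 11 were called higher (background 13.2%) and none lower, with a median log2 fold change of 1.63, and Ciita and Il15 were not called. Psmb8, an immunoproteasome subunit, stood at 105 ± 3.24 CPM in IRF3-2D and 26.1 ± 1.94 CPM in Ctrl liver (SD, n = 3 each), and Psmb10, Gbp3 and the class I transactivator Nlrc5 had log2 fold changes of 1.37, 2.01 and 1.63. Several genes answer to more than 1 factor, so the lists do not divide the response among members. The ISRE core stood in the promoter windows of 10 of 16 listed IRF3 and ISGF3 targets and 4 of 9 listed IRF1 targets with a window, and in 1 of 8 members. Over all tested genes it stood in 7.62% of those called higher, 3.17% of those called lower and 3.81% of those not called. Of 11 interferon genes with a row, 9 were at 0 in all 6 libraries. Ifnk had 3, 2 and 0 counts and Ifng 0, 3 and 0 in IRF3-2D libraries, and both were at 0 in all Ctrl libraries. Rnf31, and Ddx58 of the listed IRF3 and ISGF3 targets, are also at 0 in all 6 libraries, so a 0 here can be a gene that was not quantified and does not show that a transcript was absent.

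**Figure D5:**
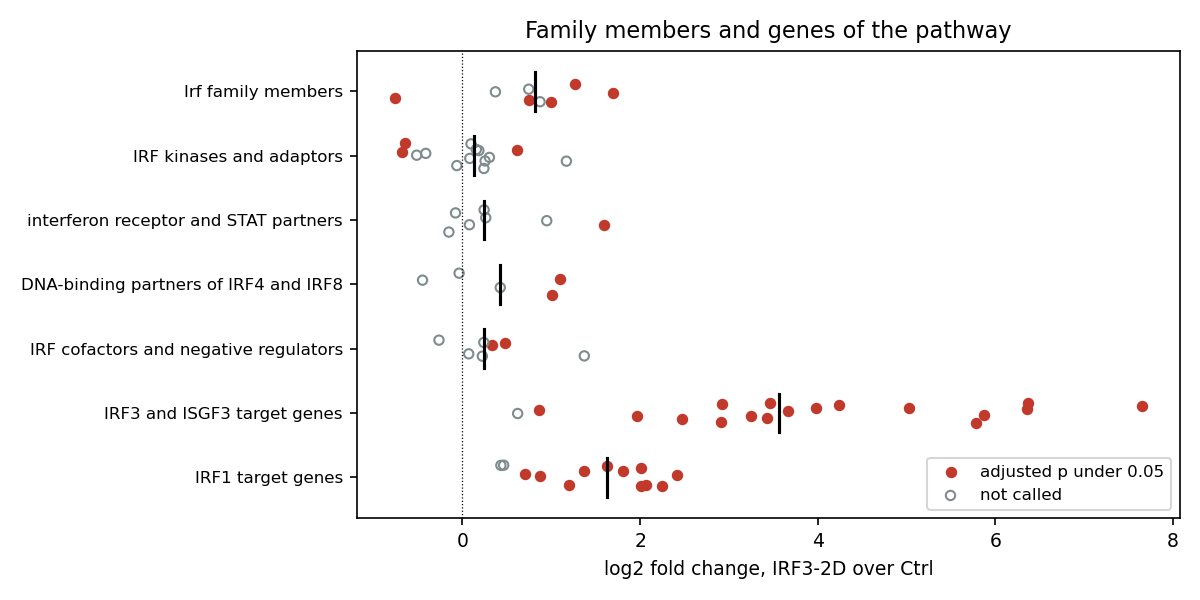
Log2 fold change, IRF3-2D over Ctrl, of each tested gene in the family and in 6 lists of its pathway; filled red points passed an adjusted p under 0.05, open points did not, and black lines are medians. The targets of IRF3 and ISGF3 have a median of 3.56 and those of IRF1 of 1.63, while the family has 0.81 and the kinases and adaptors 0.13.

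Markers of the immune cells in which Irf4, Irf5 and Irf8 are best known are given beside these members. In bulk tissue, more cells of a type and more RNA per cell cannot be told apart. Kupffer cell and macrophage genes gave 4 higher calls and no lower one among 13 tested markers, where 13.2% of all genes were called higher, Mpeg1 (log2 fold change 2.05) and C1qb (0.70) being 2 of them. The median log2 fold change of the 13 was 0.39, below that of both named markers. The summed level of that list was 1364, 1334 and 1001 CPM in IRF3-2D and 706, 666 and 601 CPM in Ctrl libraries, with no marker at 0 in all libraries. The count was 2 without IRF3-2D replicate 1 or 2 or Ctrl replicate 2 or 3, 7 without IRF3-2D replicate 3 and 9 with library totals alone (background then 41.7%). Of 3 tested monocyte markers 2 were called higher (background 13.2%), Fcgr4 (log2 fold change 1.26) and Ly6c2 (3.04). Without IRF3-2D replicate 2, with limma-voom and with the replicate block Ly6c2 lost its call. The summed monocyte level was 21.9, 30.6 and 12.3 CPM in IRF3-2D and 9.31, 6.90 and 6.80 CPM in Ctrl libraries. Dendritic cell markers summed to 7.57, 10.2 and 6.82 CPM in IRF3-2D and 6.21, 3.11 and 5.86 CPM in Ctrl libraries, and none of 5 tested was called (Cd209a had the smallest p, with a log2 fold change of 1.19). The part of these cells in the values of Irf8, Irf5, Irf4 and Spi1 was not tested.

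Of 3 tested B and plasma cell markers none was called (Jchain, log2 fold change 1.22, adjusted p = 0.146), and the list summed to 11.0, 6.57 and 7.34 CPM in IRF3-2D and 8.17, 3.87 and 3.05 CPM in Ctrl libraries, with Pax5 at 0 throughout. Jchain was called without Ctrl replicate 1 and with library totals alone. Of 2 tested T and NK cell markers none was called (Gzma, 0.97), with sums of 4.01, 6.98 and 5.77 CPM in IRF3-2D and 4.82, 2.36 and 3.20 CPM in Ctrl libraries. The single tested neutrophil marker, S100a8, was not called, and the list summed to 1.49, 3.79 and 2.10 CPM in IRF3-2D and 2.04, 0.589 and 3.91 CPM in Ctrl libraries, with Mpo at 0 throughout. Within IRF3-2D the monocyte and dendritic cell sums stood in the order of Irf8 (replicate 2, then 1, then 3). The Kupffer cell and macrophage, B and plasma cell, T and NK cell and neutrophil sums stood in other orders. Within Ctrl the order of Irf8 was replicate 3, then 2, then 1, and none of these sums stood in it. These orders of 3 libraries were not tested. Of the 11 tested dendritic cell, B and plasma cell, T and NK cell and neutrophil markers, 0 were called by edgeR, DESeq2 or limma-voom. Of the same markers 0 had an unadjusted edgeR p under 0.05. The median log2 fold changes were 1.02 for dendritic cell, 0.55 for B and plasma cell and 0.78 for T and NK cell markers. The single neutrophil marker had -0.13. All these lists were at low levels, so the lack of calls does not show that the markers were unchanged. Sinusoidal endothelial genes gave 4 lower calls and no higher one among 7 tested, where 13.1% of all genes were called lower, Ehd3 (log2 fold change -0.74) and Ptprb (-0.47) being 2 of them, with sums of 293 to 377 CPM in IRF3-2D and 450 to 464 CPM in Ctrl libraries. That count was 2 without IRF3-2D replicate 1 or 2 or Ctrl replicate 1 or with the block, 1 without Ctrl replicate 2 or 3 and 0 with library totals alone (background then 5.29%).

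The genes whose pattern over the 6 libraries was most like that of a member were found by the root mean square difference of centred log2 CPM. Smlr1 was nearest to Irf3, at 0.0867, and was the only gene within 0.1. Tagap1 was nearest to Irf7, at 0.0877, again the only one within 0.1. Heatr6 was second to Irf7 at 0.102, and the immunity-related GTPase gene Irgm1 was the third at 0.114. Nearest to Irf9 were Dph7, at 0.0226, and Nmi, whose product binds STAT proteins and is made in response to interferon, at 0.0311, among 37 genes within 0.1. Tbc1d30 was nearest to Irf2, at 0.0509, among 38 genes within 0.1, and Nipa1 to Irf1, at 0.0484, among 3. The interferon-inducible Slfn5 was second to Irf8, at 0.0875, after Aste1 at 0.0693. No gene lay within 0.1 of Irf4 or Irf5. The difference between the groups is part of every such profile, so likeness includes a like fold change.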

How the data were processed

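RNA of 6 mouse liver samples was sequenced from poly-A selected, strand-specific libraries, per the labels' protocols. The deposited values are estimated counts per gene, not normalized. The submitters' processing notes list Salmon 1.2.1, GRCm38 and mm10, with no role for each; the sources used here state no annotation, strand setting or filter. Every value was whole, so the deposited estimated counts were used as rounded estimates. Genes used by every cell can be listed near 0, so some values may miss transcripts of a gene. Of 20894 identifiers 20817 had a symbol in GENCODE M21; the other 77 held at most 0.022% of a library.

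Groups and replicate numbers came from the sample titles and columns from the library names. Whether the samples are separate mice is not in the labels, and the p-values then describe sample-to-sample spread that may be technical. No replicates agreed within sampling noise (chi-square per degree of freedom 18.9 to 109.7).

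The comparison of IRF3-2D with Ctrl used edgeR 4.0.16 (R 4.3.3) with filterByExpr, TMM and Benjamini-Hochberg over 10802 genes, after a check on simulated counts. Each SE was the log2 fold change divided by the root of F. Alternatives were DESeq2 1.42.0, limma-voom (limma 3.58.1), other scalings and filters, single libraries left out and the replicate number as a block. The members and lists were chosen with earlier results of these data known. Named genes were the members, the 4 called genes of smallest adjusted p per pathway list and 2 per marker list, the neighbours of members, and the 3 most alike in pattern, some left out for space. A few genes are not reported here and are left out of the lists. Ttr, Ddx58, Pax5, Mpo, Mx1, Ciita, Il15, Ifnk and Ifng, and the uncalled genes of smallest p in a marker list, were named after their values were seen.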

Additional observations from a re-analysis of the deposited data

How the results depend on the processing

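The counts of 4 members called higher and 1 lower were the same under all alternatives but library totals alone, where 5 were called higher, Irf8 being the added one. The log2 fold changes of the 5 called members ran from 1.16 to 1.72 for Irf3, 1.62 to 2.15 for Irf7, 0.87 to 1.45 for Irf1, 0.69 to 1.204 for Irf9 and -0.90 to -0.31 for Irf2. Library totals alone gave 4500 genes higher and 571 lower, against 1426 and 1418 with TMM, so that 88.7% against 50.1% of the calls were higher. Leaving out single libraries gave 851 to 1312 genes higher and 920 to 1363 lower. The direction turned for Irf5 without IRF3-2D replicate 1 (-1.35; up to 1.54 without Ctrl replicate 1). The cause was not tested. With the replicate block 1038 genes were higher and 1128 lower. Same-numbered samples did not deviate together (correlations of their deviations 0.096, -0.034 and 0.045), so the numbers are not taken as pairs. The count ratios between members were added after seeing the data. With a mean count of at least 50, Irf4 and Irf5 were not tested. Irf4 and Irf5 had at most 19 and 75 counts in a library, and the part of depth in their spread was not tested.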
